A study of Rattus norvegicus with 22 samples.

Results

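Anks6, the gene that carries the Cy mutation of this rat strain, and 4 genes whose proteins are linked to it, Anks3, Invs, Nek8 and Bicc1, were followed in the kidneys of 22 male rats of the strain PKD/Mhm (Cy/+). The 5 genes were chosen by name, as the mutated gene and its ciliary partners, with earlier results of these data known. All 5 were among the 17334 genes listed, and all 5 were among the 12867 genes that passed the filter on low counts and were tested. The Cy mutation is a missense change in the SAM domain of Anks6, and no rat without it was analysed here, so no value below compares carriers with normal kidneys. The values do not separate the mutant from the normal allele.

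The study asked whether repeated injection of human stromal cells, or of medium conditioned by such cells, changes the kidneys of these polycystic rats. All rats were of the same strain, were heterozygous for Cy and were 8 months old when the left kidney was taken, and the carriers had been picked by palpating the abdomen. Of them, 6 were untreated, 6 had received human adipose-derived stromal cells (ASC) intraperitoneally (i.p. ASC), 6 had received ASC intravenously (i.v. ASC) and 4 had received conditioned medium (CM). Treatment was given monthly for 6 months, with 2000000 cells per injection in the cell groups. The labels name neither the cells nor the route of the CM group, the paper gives ASC as its source, and the route differs between sections of the paper. Each group was made of different animals, called here by the animal number of their label. The total estimated count was 12454983 to 14552261 per untreated rat, 12444227 to 13959331 after i.p. ASC, 12195682 to 14734772 after i.v. ASC and 12291823 to 13913888 after CM. Markers of kidney were present throughout, with the 10 proximal tubule markers above 0 in every rat and a summed level of 1195 to 7356 TPM (transcripts scaled by their length and to equal library totals).

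The inversin compartment is a stretch of the primary cilium next to its base, and it is named after inversin, the product of Invs, which is needed to assemble it. Inversin, the kinase Nek8 and Anks6 come together there, and loss of any of these genes causes cystic kidneys of the nephronophthisis type. Anks6 binds and activates Nek8. Anks3 is a close relative of Anks6, and its SAM domain can bind those of Anks6 and of Bicc1, an RNA-binding protein of the cytoplasm that controls the translation of target messages such as Adcy6 and Pkia and whose loss also gives kidney cysts. Whole kidney holds many cell types, so fewer cells of a type and less RNA per cell cannot be told apart in these values.

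Promoter sequence was found for 4 of the 5 genes in the RefSeq table of the assembly GRCr8, and those of Nek8 and Bicc1 are shown because this pair had the highest correlation over rats (below). Each is the 250 bases before the annotated start, 5′ to 3′ on the strand of the gene, at chr10:63570489-63570738 on the minus strand for Nek8 and chr20:17448515-17448764 on the plus strand for Bicc1. Capitals mark matches to the CCAAT box (CCAAT) and the GC box (GGGCGG) on either strand.
Nek8: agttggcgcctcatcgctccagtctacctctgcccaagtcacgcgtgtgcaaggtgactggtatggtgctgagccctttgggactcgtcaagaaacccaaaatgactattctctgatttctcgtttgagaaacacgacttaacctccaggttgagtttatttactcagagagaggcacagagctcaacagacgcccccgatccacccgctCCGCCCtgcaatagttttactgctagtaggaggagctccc
Bicc1: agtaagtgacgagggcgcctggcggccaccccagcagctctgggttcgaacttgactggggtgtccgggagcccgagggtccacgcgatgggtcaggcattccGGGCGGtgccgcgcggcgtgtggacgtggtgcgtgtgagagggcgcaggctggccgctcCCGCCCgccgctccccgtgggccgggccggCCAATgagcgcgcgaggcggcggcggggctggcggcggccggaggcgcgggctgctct
The promoter of Bicc1 was 76.4% G and C, at the 97.4th percentile of 33469 rat promoters, and that of Nek8 was 52.4%, at the 52.9th. The promoter of Anks3 was 65.6% and that of Invs 60.0% G and C. The GC box letters matched 1 time in Nek8 and 2 times in Bicc1, and 30.5% of all promoters hold such a match. The CCAAT letters matched 2 times in Anks3 and 1 time each in Invs and Bicc1, against 34.02% of all promoters with a match. The half-site GTTGCC of the X-box, the motif read by the RFX factors of ciliary genes, was in none of the 4 windows and in 9.89% of all promoters. A match of letters is a description of the window, not a measured binding site.

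Several libraries stood apart from the rest, by urothelial markers, mostly after i.v. ASC, and by effective transcript length, evenly over the groups. In 6 rats the mean of the urothelial markers, genes of the lining of the renal pelvis, was above 0 on the log2 CPM scale (counts scaled to equal library totals), namely i.v. ASC rats 3, 9, 10 and 13, i.p. ASC rat 7 and untreated rat 23. The summed TPM of the 6 urothelial markers, led by Upk1a, had a median of 73.9 and a highest value of 546 after i.v. ASC, while the medians of the other groups lay between 2.39 and 3.23, and 4 of the 6 markers were at 0 in at least 1 rat. Separately, the ratio of estimated count to TPM, which gives the effective length of a gene's transcripts, split the libraries into 2 sets of 11, called A and B here. The cut was made at the widest gap between rats in the log2 ratio of 2539 short genes. In that ratio the difference between set B and set A was -0.14. Its direction and the lack of overlap between the sets follow from the cut and are not a test. The sets were spread evenly over the treatments, with 3 and 3 rats of each group of 6 and 2 and 2 of the CM rats, and neither the labels nor the paper mention them. The counts themselves differed little between the sets. With treatment in the fit, edgeR called 0 of 12867 genes between the sets (0%), 454 genes (3.53%) were below an unadjusted p of 0.05, and the 5 genes had adjusted p-values of 0.9998.

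Per length of transcript, Bicc1 was the most abundant of the 5 genes and Invs the least. Over all 22 rats the median level was 46.6 TPM for Bicc1, 26.8 TPM for Anks3, 18.9 TPM for Anks6, 13.9 TPM for Nek8 and 3.65 TPM for Invs. By mean TPM they lay at the 75.4th, 58.7th, 49.1st, 41.1st and 16.6th percentile of the tested genes. The message for the scaffold that gives the compartment its name was thus at a low level, 142 to 251 estimated counts per rat, against 1064 to 2697 for Bicc1. The order held in every rat, although Anks3 exceeded Anks6 by a factor of only 1.01 in i.v. ASC rat 3, and Anks6 exceeded Nek8 by a factor of only 1.01 in i.p. ASC rat 16. Nek8 was above Invs by a factor of at least 3.28. The genes also differed in how much they varied. The ratio of the highest to the lowest rat was 2.58 for Bicc1 and 1.46 for Anks3 on the TPM scale. The SD between rats of a group, in log2 CPM, was 0.28 for Bicc1, 0.25 for Anks6, 0.16 for Invs, 0.14 for Nek8 and 0.10 for Anks3, the last at the 8.81st percentile of the tested genes.

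**Figure D1:**
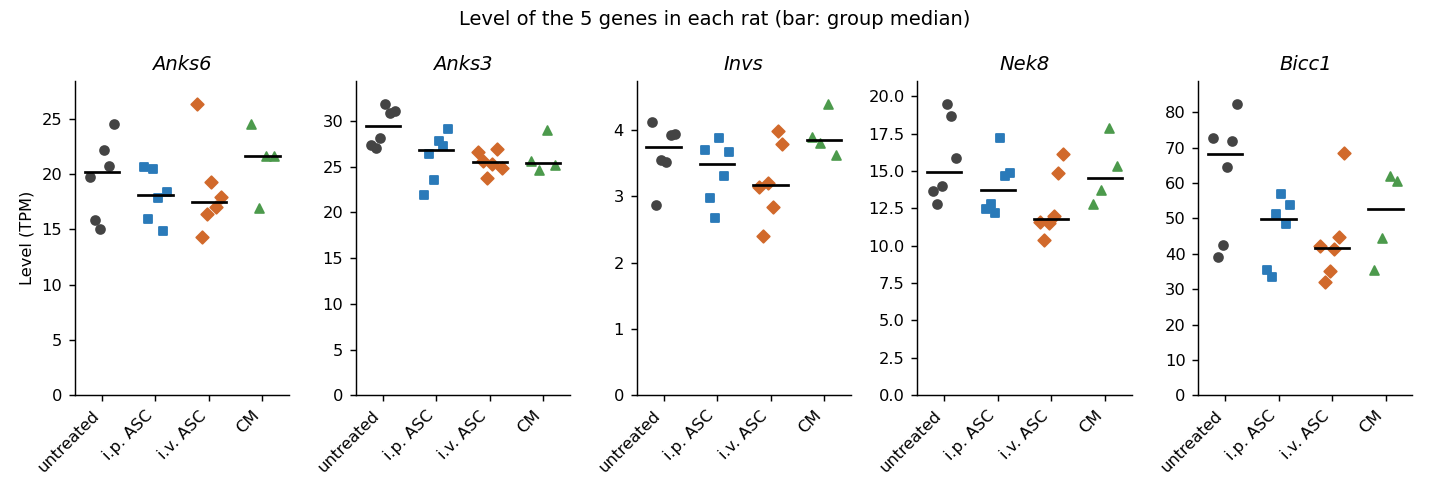
Level of each of the 5 genes in TPM (vertical axis, starting at 0, 1 panel per gene) in each of the 22 rats by group. Each point is a rat and the bar is the group median. The groups overlap apart from untreated and i.v. ASC rats for Anks3, whose ranges overlap in CPM. Bicc1 has the widest range, and 1 i.v. ASC rat stands above the others for Anks6.

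The rule of the comparison was edgeR's quasi-likelihood test on the rounded counts with Benjamini-Hochberg adjustment over all 12867 genes and a threshold of 0.05. In none of the comparisons with untreated rats did any of the 5 genes pass it, and neither did any other gene, so that the share of all tested genes called was 0% in each of the 3, and it was also 0% between i.v. ASC and i.p. ASC rats. At an unadjusted p below 0.05 the share of all tested genes was 3.89% with i.p. ASC, 8.81% with i.v. ASC, 6.6% with CM and 2.18% between i.v. ASC and i.p. ASC. The corresponding counts among the 5 genes were 0, 2, 0 and 0. Both of the 2 were in the i.v. ASC comparison, Nek8 and Bicc1, and both were lower. The F test over all 4 groups called 11 genes (0.0855%), and 529 genes (4.11%) were below an unadjusted p of 0.05. The 11 were Upk1a, Upk1b, Upk2, Upk3a and Krt5 of the urothelial markers, and Sptssb, Tp63, Krt15, Anxa8, Sprr1a and Fat2, named after their values were seen. None of the 5 genes was among them or among the 529 (lowest unadjusted p 0.0865, for Bicc1). DESeq2, the program that the study used, called 0, 28 and 4 genes in the comparisons of i.p. ASC, i.v. ASC and CM with untreated rats, again none of the 5.

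Anks6 itself showed no difference between treatments that exceeded the spread between rats. Its level had a lowest, median and highest value of 15, 20.2 and 24.5 TPM in untreated rats. These values were 14.9, 18.1 and 20.6 TPM after i.p. ASC and 14.3, 17.5 and 26.3 TPM after i.v. ASC. The CM rats 2, 11, 19 and 21 had 24.5, 16.97, 21.65 and 21.6 TPM. All ranges overlap, and only i.v. ASC rat 3 and CM rat 2 were at or above the highest untreated rat. Against untreated rats the log2 fold change was -0.02 ± 0.14 (SE) with i.p. ASC, 0.05 ± 0.14 with i.v. ASC and 0.19 ± 0.16 with CM, and edgeR's adjusted p-values were 0.976, 0.9 and 0.837. The i.v. ASC value of Anks6 turned to -0.11 without i.v. ASC rat 3, and the CM value moved to 0.06 without CM rat 2. With the mean of the proximal tubule markers in the fit the values of Anks6 were -0.09 with i.p. ASC, 0.01 with i.v. ASC and 0.06 with CM. With 1 surrogate variable, a term for shared variation estimated from all genes, they were -0.16, -0.13 and 0.04, and none passed the threshold under either setting (edgeR adjusted p from 0.855 to 0.9989).

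Anks3, the relative that bridges Anks6 and Bicc1, was the steadiest of the genes. It ranged from 27.1 to 31.8 TPM in untreated rats, with a median of 29.5 TPM. The medians were 26.8 TPM after i.p. ASC (range 21.9 to 29.1) and 25.5 TPM after i.v. ASC (range 23.8 to 26.9), and the CM rats 2, 11, 19 and 21 had 25.65, 24.65, 29.0 and 25.2 TPM. On the TPM scale all 6 i.v. ASC rats lay below all 6 untreated rats. In CPM the ranges overlapped, with 45.6 to 53.0 in untreated and 39.1 to 50.3 in i.v. ASC rats. The share of all tested genes with such a gap in TPM is not given here, so the gap is a description only. Its log2 fold change was -0.09 ± 0.06 with i.p. ASC, -0.09 ± 0.06 with i.v. ASC and -0.10 ± 0.07 with CM, and none was past the threshold (edgeR adjusted p = 0.772, 0.575 and 0.796). With 1 rat left out the i.v. ASC value of Anks3 ran from -0.11 to -0.04, the latter without i.v. ASC rat 14. The scale differs between these values. On log2(TPM + 1) the median of all tested genes was itself shifted against untreated rats, to -0.10 with i.p. ASC, -0.12 with i.v. ASC and -0.07 with CM, and after i.v. ASC Anks3 was at -0.19, Nek8 at -0.28 and Bicc1 at -0.48 (limma adjusted p = 0.460 for each).

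Invs, the scaffold of the compartment, had a median of 3.735 TPM in untreated rats (range 2.875 to 4.12), 3.48 TPM after i.p. ASC (2.67 to 3.88) and 3.17 TPM after i.v. ASC (2.40 to 3.99). The CM rats 2, 11, 19 and 21 had 3.895, 3.798, 4.39 and 3.62 TPM, of which only that of rat 19 lay above the untreated range. The log2 fold changes of Invs, -0.03 ± 0.10 with i.p. ASC, -0.07 ± 0.10 with i.v. ASC and 0.18 ± 0.11 with CM, had adjusted p-values of 0.953, 0.765 and 0.75 in edgeR. With 1 rat left out the i.v. ASC value of Invs ran from -0.12 (without i.v. ASC rat 13) to -0.02 (without rat 8), and the i.p. ASC value from -0.07 (without i.p. ASC rat 5) to 0.03 (without rat 7). Counts of Invs and of Nek8 were not whole in any of the 22 rats at a tolerance of 0.01 counts, the nearest lying 0.031 and 0.041 from a whole number, and since the authors' kind of estimate can divide reads between transcripts of different genes, the values of both are less certain. Counts of Anks6, Anks3 and Bicc1 were whole in all 22 rats at the same tolerance.

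Nek8, the kinase that Anks6 activates, had a lowest, median and highest level of 12.8, 14.95 and 19.5 TPM in untreated rats and 10.4, 11.8 and 16.1 TPM after i.v. ASC. After i.p. ASC the values were 12.2, 13.7 and 17.2 TPM, and the CM rats 2, 11, 19 and 21 had 12.8, 13.8, 17.9 and 15.3 TPM. Of the i.v. ASC rats, 4 lay below the lowest untreated rat in TPM and the other 2 within the untreated range. In CPM, i.v. ASC rat 9 (25.36) was above the lowest untreated rat (25.08), and rats 3, 8 and 10 remained below it. The share of all tested genes with such a pattern is not given here. The log2 fold change of Nek8 after i.v. ASC was -0.20 ± 0.09, with an unadjusted p of 0.0337 and an adjusted p of 0.523 in edgeR. After i.p. ASC it was -0.08 ± 0.09 and after CM -0.01 ± 0.10, with adjusted p-values of 0.833 and 0.997. Without untreated rat 22 the values of Nek8 moved to -0.0025 with i.p. ASC, -0.12 with i.v. ASC and 0.06 with CM.

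In the fit of all 22 rats with treatment alone, Bicc1 had the largest differences of the 5 genes between untreated and treated rats. None of them passed the threshold after adjustment over all tested genes. Untreated rats 1, 12, 18, 22, 23 and 24 had 72.8, 39.0, 42.5, 64.6, 71.8 and 82.3 TPM. The lowest, median and highest values were 33.6, 49.9 and 57.0 TPM after i.p. ASC and 31.95, 41.8 and 68.5 TPM after i.v. ASC. The CM rats 2, 11, 19 and 21 had 35.4, 44.5, 62.1 and 60.55 TPM. Untreated rats thus fell into a low pair, rats 12 and 18, which lay among the treated rats, and 4 rats that were above all 6 i.p. ASC rats. The log2 fold change of Bicc1 was -0.31 ± 0.15 with i.p. ASC, -0.39 ± 0.15 with i.v. ASC and -0.22 ± 0.17 with CM. In edgeR the unadjusted p-values were 0.0512, 0.0186 and 0.208 and the adjusted ones 0.771, 0.523 and 0.834. When a measure of transcript length per rat (below) was in the fit, the values of Bicc1 moved to -0.11 with i.p. ASC, -0.13 with i.v. ASC and -0.15 with CM. Other genes were then farther from 0, namely Anks3 with i.p. ASC (-0.12) and Invs and Anks6 with CM (0.18 for both). The CM value of Bicc1 moved to -0.12 without CM rat 2, where Anks3 was at -0.15 and Invs at 0.13. Without the 6 rats with urothelial markers, only rats 8 and 14 were left in the i.v. ASC group. The i.v. ASC values were then -0.23 ± 0.18 for Anks6, -0.15 ± 0.10 for Anks3, -0.21 ± 0.13 for Invs, -0.17 ± 0.13 for Nek8 and -0.25 ± 0.25 for Bicc1. Over all rats the i.v. ASC value of Nek8 moved to -0.10 with the length measure and to -0.10 with the animal number. Between the cell groups, i.v. ASC against i.p. ASC, the log2 fold changes of the 5 genes ran from -0.12 (Nek8) to 0.07 (Anks6), with adjusted p-values of 1.0.

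**Figure D2:**
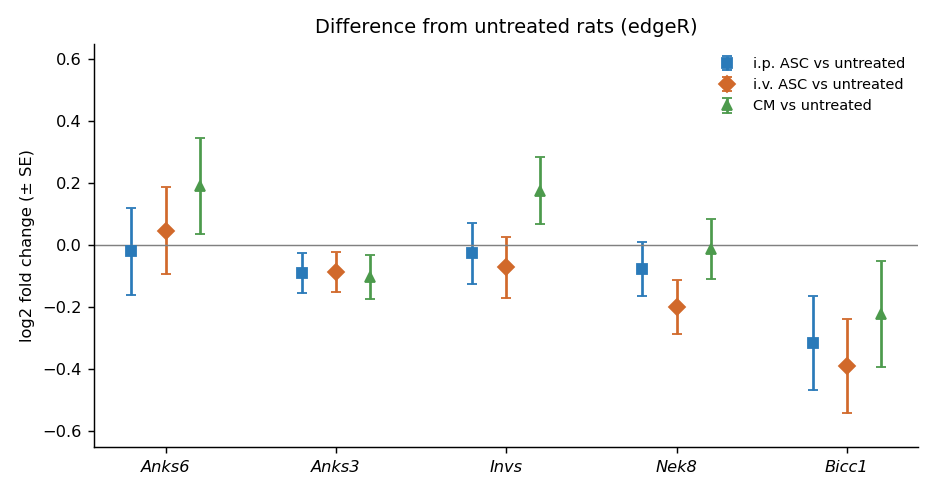
Log2 fold change against untreated rats (vertical axis) of the 5 genes after i.p. ASC, i.v. ASC and CM, as fitted by edgeR, with bars of 1 SE. Nek8 after i.v. ASC (-0.20) and Bicc1 after i.p. ASC (-0.31) and i.v. ASC (-0.39) are below 0 by more than 2 SE, and no value passed the adjusted threshold.

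The wider pathway gave the same picture in the calls. Of 7 lists of related genes, 0 members were called in any of the comparisons, out of 10 partners of the compartment, 20 nephronophthisis genes, 10 transition zone genes, 24 genes of intraflagellar transport and the BBSome, 10 Bicc1 targets and deadenylase subunits, 12 genes of Dishevelled and planar polarity and 13 Hippo genes tested. The median log2 fold change after i.v. ASC was -0.09 for the 5 genes, -0.02 for the partners, -0.02 for the nephronophthisis genes, -0.06 for the transition zone, -0.04 for intraflagellar transport, -0.11 for the Bicc1 list, -0.15 for planar polarity and -0.14 for the Hippo list, against -0.01 for all tested genes. Members below an unadjusted p of 0.05 after i.v. ASC were 2 of 20, 2 of 10, 2 of 10 and 2 of 12 for the nephronophthisis, transition zone, Bicc1 and planar polarity lists and 0 in the others, all lower, beside 8.81% of all tested genes. Among them were the transition zone proteins Tmem67 (log2 fold change -0.31 ± 0.09, edgeR adjusted p = 0.504) and Tmem237 (-0.22 ± 0.06, edgeR adjusted p = 0.494), named after their values were seen. After i.p. ASC the planar polarity and Hippo lists had medians of -0.14 and -0.13, and the median of all tested genes was -0.01.

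None of the single partner genes passed the threshold. The kinase Nek7, of the same family as Nek8, at a median of 37.1 TPM, had log2 fold changes of -0.11, -0.14 and -0.14 after i.p. ASC, i.v. ASC and CM. The asparagine hydroxylase Hif1an, which modifies ankyrin repeats, had -0.16, 0.06 and -0.09 in the same order. For Unc119b, a carrier of lipid-modified ciliary cargo, the values were 0.16, 0.10 and 0.20. Arl13b, a small GTPase of the ciliary membrane, had -0.09, -0.04 and -0.11.

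The lowest unadjusted p among 15 partner genes chosen by name was that of Pkd2, which encodes polycystin-2, a ciliary channel whose message is a known target of Bicc1. Its log2 fold change after i.v. ASC was -0.18 ± 0.05, with an unadjusted p of 0.00123 and an adjusted p of 0.464 from edgeR, and its median level over all rats was 35.9 TPM. Adcy6, the adenylyl cyclase whose translation Bicc1 silences, had -0.16 ± 0.12 after i.v. ASC. The other Bicc1 target, Pkia, an inhibitor of protein kinase A named here after its value was seen, had -0.53 ± 0.16 (adjusted p = 0.523 from edgeR). Of the 15 genes, 4, 5 and 6 had a fold change above 0 after i.p. ASC, i.v. ASC and CM. At an unadjusted p below 0.05 in edgeR there was 1 of 15 in each, beside 3.89%, 8.81% and 6.6% of all tested genes in the same order. Among them were Cep290 (a transition zone protein), with a log2 fold change of -0.20 ± 0.09 after i.p. ASC, and Pkd2 after i.v. ASC.

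Since the proteins are linked, the messages were also compared over rats. On log2 CPM, 0 of the 10 pairs of genes passed the threshold after Benjamini-Hochberg adjustment over the 10 (two-sided permutation tests, 22 rats, 100000 resamples). The highest correlation was between Nek8 and Bicc1, with r = 0.486 (permutation p = 0.0213, adjusted 0.213) and rho = 0.479 (p = 0.0257, adjusted 0.257). It was 0.330 without the 2 rats farthest from the median of Nek8. Of all other tested genes, 89.97% had a lower r with Nek8 than Bicc1 had, and 83.72% a lower r with Bicc1 than Nek8 had. Next came Invs and Nek8, with r = 0.429 (permutation p = 0.0468, adjusted 0.234), rho = 0.355 (p = 0.107, adjusted 0.535) and r = 0.221 without 2 rats. For this pair the shares of genes with a lower r were 97.12% for Invs and 85.78% for Nek8. The r of Anks6 was -0.07 with Nek8, 0.02 with Bicc1, 0.12 with Anks3 and 0.22 with Invs, and its rho ran from -0.14 to 0.28 (adjusted permutation p from 0.816 for r and 0.715 for rho). On residuals of the first principal component of all genes, r of Anks6 and Bicc1 was 0.521, with an adjusted permutation p of 0.0639. The correlation of Anks3 with Bicc1 was -0.22, with an adjusted permutation p of 0.816, and -0.51 on deviations from the group means (adjusted permutation p = 0.208).

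The pair Nek8 and Bicc1 had unequal values in the sets of libraries with different effective lengths, and the difference between the sets was not tested. In the 11 rats of set A r was 0.251 (permutation p = 0.454, adjusted over the 10 pairs 0.648), and in the 11 of set B it was 0.810 (permutation p = 0.00211, adjusted 0.0211). For Invs and Nek8 the values were 0.459 and 0.435, and for Anks6 and Nek8 -0.21 and 0.01.

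The scale decided how many pairs passed. On log2(TPM + 1), 5 of 10 pairs passed, Anks3 with Nek8 (r = 0.6875), Anks3 with Bicc1 (0.593), Invs with Nek8 (0.692), Invs with Bicc1 (0.587) and Nek8 with Bicc1 (0.778), with adjusted permutation p-values of 0.0014, 0.0086, 0.0014, 0.0086 and 0.0006. On this scale the whole library moved from rat to rat, since the median of all tested genes ran from 4.18 to 4.55 log2(TPM + 1). When that median was taken from each rat, a setting added after the data were seen, 0 of 10 pairs passed. All 4 pairs with Anks6 stayed below the threshold on both scales.

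**Figure D3:**
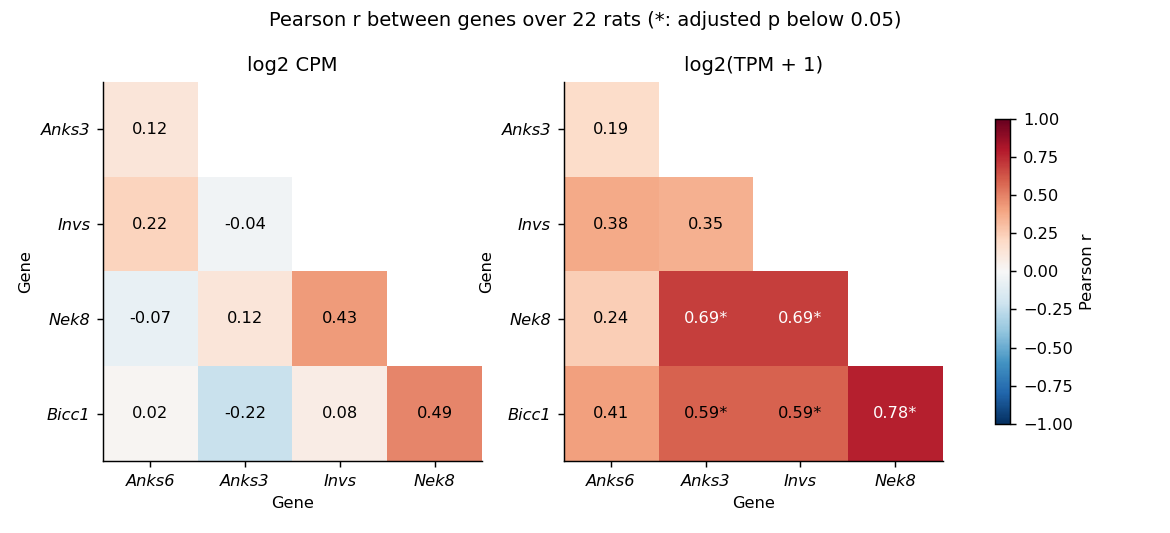
Pearson r between each pair of the 5 genes over 22 rats (both axes are genes, colour is r from -1 to 1), on log2 CPM at left and log2(TPM + 1) at right. An asterisk marks an adjusted permutation p below 0.05, which holds for 0 pairs at left and 5 pairs at right, none of them with Anks6.

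Bicc1 and Nek8 moved with a property of the whole library. The length slope of a rat is the slope, over all tested genes, of a gene's deviation from its mean log2 CPM on its log2 relative transcript length, so a rat with a positive slope has relatively more counts for long transcripts. Bicc1 correlated with it at r = 0.881 and rho = 0.881 (both with a permutation p of 1e-05, the smallest these permutations can give, adjusted over 15 relations 0.00015), and at 0.878 without the 2 rats farthest from the median slope. Nek8 had r = 0.689 (permutation p = 0.00031, adjusted 0.00233) and rho = 0.700 (p = 0.0005, adjusted 0.0025), with 0.610 without 2 rats. The other 3 genes had r of -0.09 (Anks6), -0.18 (Anks3) and 0.17 (Invs). The order does not follow the genes' own relative length, the count to TPM ratio divided by the median of all genes, which was 2.83 for Invs, 2.23 for Anks6, 1.61 for Bicc1, 1.27 for Nek8 and 1.15 for Anks3. The slope is itself computed from all tested genes, and the share of them with such r is not given here. The relation is therefore not shown to be particular to Bicc1 and Nek8.

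For Bicc1 the relation passed in set A and in set B, with r = 0.837 (permutation p = 0.00281, adjusted 0.0281) and r = 0.964 (permutation p = 1e-05, adjusted 0.0001) in 11 rats each. For Nek8 r was 0.602 (permutation p = 0.0530, adjusted 0.176) and 0.794 (permutation p = 0.00194, adjusted 0.0097). The order of the group means of the slope was that of Bicc1 in CPM, with a mean of 0.0274 ± 0.0441 (SD, n = 6) in untreated rats, -0.0108 ± 0.0522 (n = 6) after i.p. ASC, -0.0247 ± 0.0463 (n = 6) after i.v. ASC and 0.0122 ± 0.0564 (n = 4) after CM, with wide overlap. Its part in the fold changes of Bicc1 and Nek8 was not tested beyond the fit that includes it, above. Taking the slope out of both genes changed r of Nek8 and Bicc1 from 0.486 to -0.35 (adjusted permutation p = 0.413). The animal number of the labels moved the same way, with r = 0.673 for Nek8 (permutation p = 0.00052, adjusted 0.0026; rho = 0.736, p = 0.00015, adjusted 0.00113) and r = 0.554 for Bicc1 (permutation p = 0.00833, adjusted 0.0250; rho = 0.578, p = 0.0057, adjusted 0.0214). Without the 2 rats farthest from the median number, r was 0.726 and 0.746. In sets A and B it was 0.624 and 0.769 for Nek8 and 0.497 and 0.756 for Bicc1, with adjusted permutation p-values of 0.176, 0.0147, 0.241 and 0.0190. The i.v. ASC rats carry numbers 3 to 14 and the untreated rats numbers 1 to 24, and what the number stands for beyond the animal is not given in the sources used here. The share of all tested genes that correlate with the number is not given either.

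**Figure D4:**
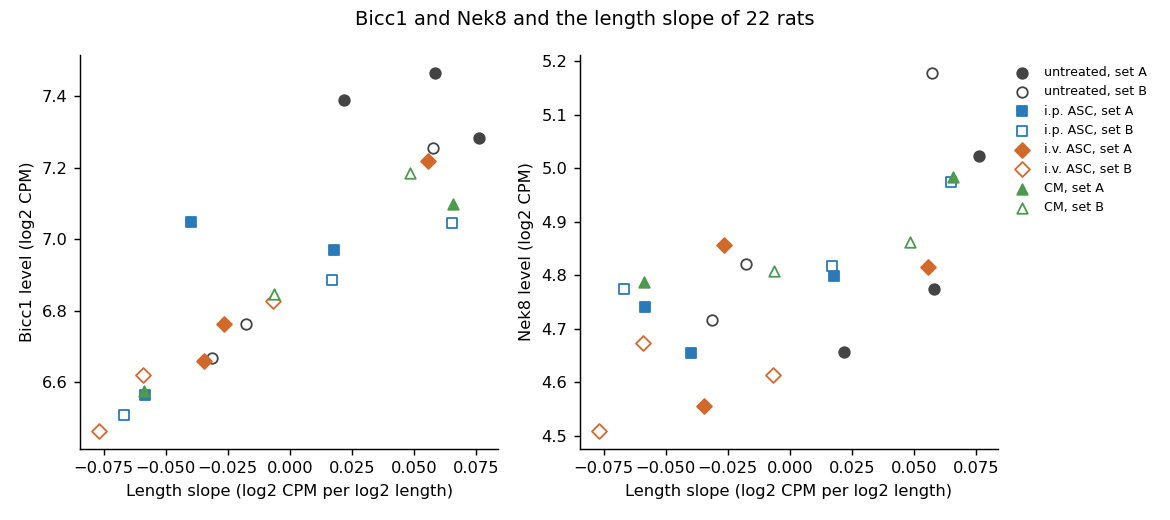
Level of Bicc1 (left) and Nek8 (right) in log2 CPM against the length slope of the rat (log2 CPM per unit of log2 relative transcript length), with 1 point per rat. Colour and shape give the group and fill gives the set of libraries (filled for A, open for B); r is 0.881 at left and 0.689 at right.

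Anks6 varied with markers of cell types. Of 70 relations between the 5 genes and the mean log2 CPM of 14 lists of cell type markers, 2 passed the threshold, and both were of Anks6. The share of all tested genes with relations this close is not given here, so neither is shown to be particular to Anks6. Its level rose with the proximal tubule markers, r = 0.758 (permutation p = 3e-05, adjusted 0.0021) and rho = 0.741 (p = 0.00015, adjusted 0.0105), and r was 0.705 without i.v. ASC rats 3 and 13, the rats farthest from the median. It fell with the lymphocyte markers, r = -0.738 (permutation p = 0.00022, adjusted 0.0077), while rho was -0.636 (p = 0.0018, adjusted 0.052) and r was -0.57 without i.v. ASC rat 3 and untreated rat 22. Both relations were then computed within sets A and B. The 2 lists were taken because they passed over the same 22 rats, so the p-values within sets are not independent support. Within sets A and B r with the proximal tubule was 0.668 (permutation p = 0.0241, adjusted over these 2 lists 0.0241) and 0.853 (permutation p = 0.00049, adjusted 0.00098). With the lymphocyte markers it was -0.75 (permutation p = 0.00648, adjusted 0.013) and -0.74 (permutation p = 0.015, adjusted 0.015), although rho in set B was -0.44 (permutation p = 0.182). With the first principal component of all genes, 42.8% of the variance, Anks6 had r = 0.620 (permutation p = 0.00202, adjusted 0.00758), but rho of 0.441 (p = 0.0413, adjusted 0.103) and 0.337 without the 2 farthest rats, so that this relation rests on those rats. Bicc1 had r = -0.53 with it (permutation p = 0.0121, adjusted 0.0302), rho = -0.54 (p = 0.0114, adjusted 0.0342) and -0.51 without the 2 farthest rats.

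Single markers differed in this. Of the 10 proximal tubule markers, all tested, 7 had r above 0.6 with Anks6, led by Cubn (0.896), the endocytic receptor cubilin, Pdzk1 (0.779), a scaffold of the brush border, and Lrp2 (0.771), the receptor megalin. The transporters Slc5a2 and Slc5a12 had r of -0.07 and -0.10. Of 6 lymphocyte markers 5 were listed and tested, and all 5 had r between -0.73 (Cd2) and -0.65 (Cd3e). The summed level of the proximal tubule list, whose most abundant gene was Miox, had medians of 2611, 3508, 2973 and 4064 TPM in untreated, i.p. ASC, i.v. ASC and CM rats, and the lowest and highest rat had 1195 and 7356 TPM. For the lymphocyte list, led by Cd3g, the medians were 114.5, 126.7, 144.6 and 159.2 TPM and the extremes 36.65 and 214 TPM, and no marker of either list was at 0 in any rat. Whether Anks6 differs per cell was not tested.

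The libraries that stood apart bear on the calls of both relations of Anks6. Without the 6 rats with urothelial markers, r was 0.690 with the proximal tubule and -0.62 with the lymphocyte list over 16 rats, and neither passed (adjusted permutation p = 0.166 for both), with fewer rats in the test. With each rat left out in turn, r ran from 0.708 to 0.800 with the proximal tubule and from -0.78 to -0.60 with the lymphocyte list. Without i.v. ASC rat 3 alone only the proximal tubule relation passed, and without i.v. ASC rat 8 the number of relations that passed was 5 of 70.

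**Figure D5:**
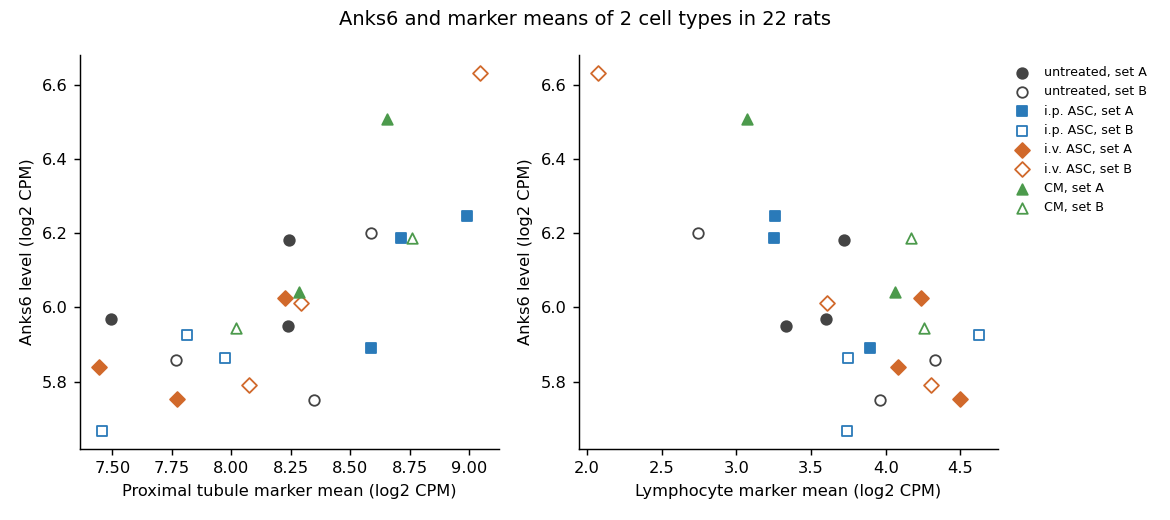
Level of Anks6 in log2 CPM against the mean log2 CPM of the proximal tubule markers (left) and of the lymphocyte markers (right), with 1 point per rat, colour and shape for the group and fill for the set of libraries (filled for A, open for B). The points rise at left (r = 0.758) and fall at right (r = -0.74), and i.v. ASC rat 3 is at the end of both.

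Among all tested genes, those most like Anks6 over the 22 rats by Pearson r of log2 CPM were Cubn (0.896), Mapt (0.895), which encodes tau, a binder of microtubules, Yeats2 (0.878), a reader of histone acylation, the growth factor Nrg1 (0.871) and the AMP deaminase Ampd2 (0.862). The genes with the lowest r were the tubulin Tuba1b (-0.89), the B cell adaptor Blnk (-0.88) and Kiaa0040 (-0.88). These values are a description, since the genes were picked as extremes of 12867. For Bicc1 the nearest genes were Fndc3b (0.922), the ubiquitin ligase Nedd4 (0.920) and the Abl interactor Abi2 (0.914), and with the length slope taken out these values were 0.575, 0.7065 and 0.612. For Nek8 they were the adaptor Sh2b1 (0.840), the lipid phosphatase Inppl1 (0.823) and the syntaxin Stx16 (0.813), and for Anks6 the value of Cubn was 0.903 after the same step. Anks3 and Invs had less close neighbours, with highest values of 0.761 (Pstk) and 0.764 (the nuclease Fan1). Anks6 and Invs lie on the same chromosome with 8 protein-coding genes starting between them in GRCr8, and their r was 0.22.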

How the data were processed

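Kidney RNA of 22 rats was analysed, 1 library per rat. The submitters' processing notes name Trim Galore 0.6.4, kallisto 0.4.6 and the build rn6, while the paper names DESeq2 and a human transcript package. The authors deposited, per rat and Entrez gene, an estimated count without normalization and a TPM value, which sums to 959754 to 968550 per rat. The estimated counts, 14.1% of which were not exactly whole, were rounded. Symbols of 17179 genes came from RefSeq (GRCr8), and 155 were not matched. The libraries come from separately numbered animals, and no pair of a group agreed within sampling noise (chi-square per gene 7.31 to 141.43 over 51 pairs).

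Genes kept by filterByExpr were scaled by TMM and tested with the quasi-likelihood method of edgeR 4.0.16 in R 4.3.3, in 1 fit of the 4 groups, with Benjamini-Hochberg adjustment, and limma 3.58.1, DESeq2 1.42.0 and sva 3.50.0 in alternatives. Log2 CPM used a prior count of 2. Correlations were tested with 100000 permutations. Relative transcript length is the count to TPM ratio over values of at least 5 counts. The procedures were tested on simulated data. The members and lists were chosen with earlier results of these data known. Genes were named by rule: the 5 genes, 15 partner genes, the nearest genes by r and the cell type markers. Tmem67, Tmem237, Pkia and 6 genes of the F test fall outside it and were named after their values were seen. The values of 1 partner gene are not reported here. Settings with the length slope, the animal number, the library sets, the proximal tubule mean in the fit of fold changes or without the urothelial rats, and the promoter motifs, were chosen after the data were seen.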

Additional observations from a re-analysis of the deposited data

Results flagged for a closer look

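The level of Anks6 in i.v. ASC rat 3 was 6.63 log2 CPM, far from the other 5 rats of that group, which lay between 5.75 and 6.03. The gap to the nearest rat was 0.69 of the range of the group. It was the only such value among the 20 combinations of the 5 genes and 4 groups that were checked. With 20 checks, 1 such value can arise by chance alone. The same rat had the highest proximal tubule mean of all rats (9.04 log2 CPM) and the lowest lymphocyte (2.07) and macrophage (3.75) means, and its urothelial mean was 5.20. Their part in the value was not tested.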

How the results depend on the processing

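Of 260 values of the 20 fold changes under settings other than single left-out rats, 237 kept their direction, 23 reversed and 0 passed the threshold (lowest adjusted p 0.416; 0.237 over 230 values with 1 rat left out). The reversed values ran from -0.2326 to 0.07667, and the cause was not tested. Without the urothelial rats, Invs was 0.0292 (i.p. ASC), Anks6 -0.233 (i.v. ASC) and Nek8 0.0242 (CM), and between i.v. and i.p. ASC the values were -0.169 for Anks6, -0.0782 for Anks3 and 0.0767 for Bicc1. In this setting the i.v. ASC group held only rats 8 and 14. With the animal number, Nek8 was 0.00405 (i.p. ASC) and 0.0401 (CM), and Anks6 -0.0710 (i.v. ASC). With 1 surrogate variable, Anks6 was -0.134 (i.v. ASC), Nek8 0.0235 (CM) and Anks3 -0.00311 between the cell groups. By limma on log2(TPM + 1) and log2(TPM + 0.1), Anks6 was -0.0841 and -0.0883 (i.v. ASC) and Anks3 -0.0197 and -0.0202 between the cell groups. Nek8 (CM) was 0.00290 by DESeq2, 0.00145 with RLE size factors, 0.00300 with only 2 groups and 0.0200 with the length slope, and Anks3 between the cell groups was -0.00203, -0.000464 and -0.0101 by DESeq2, RLE and the length slope. With 1 rat left out, Anks6 ran from -0.0752 to 0.0441 (i.p. ASC), -0.109 to 0.103 (i.v. ASC) and -0.0979 to 0.127 (between the cell groups), Bicc1 from -0.181 to -0.0220 (cell groups), Invs from -0.0687 to 0.0337 (i.p. ASC) and -0.101 to 0.00213 (cell groups), Nek8 from -0.0545 to 0.0626 (CM) and Anks3 from -0.0297 to 0.0463 (cell groups). Genes called moved from 0 to 28, 4 and 24 by DESeq2 (i.v. ASC, CM, cell groups), to 1 for CM with only 2 groups or without the urothelial rats, and to 4 between the cell groups with 1 surrogate variable. The 11 genes of the F test became 4 with a surrogate variable, 6 with the library set, and 0 with at least 10 counts in every rat, the animal number, the length slope or without the urothelial rats. With 1 rat left out the counts ran from 0 to 14 (i.v. ASC, with 11 without rat 8 and 14 without rat 14), 0 to 13 (cell groups, 13 without either) and 0 to 18 (F test, with 0 without i.v. ASC rat 9, 5 without 3 or 13, 16 without 8 and 18 without 14). Pairs that passed were 5 on both TPM scales, 1 on residuals of the animal number (Invs and Nek8, r = 0.6055) and 0 to 1 with a rat left out (1 without untreated rat 1). Reversed r were 0.24 on both TPM scales for Anks6 and Nek8, 0.35 on both for Anks3 and Invs, and 0.59 on both for Anks3 and Bicc1. For Anks6 and Nek8 r was 0.18 on residuals of the first principal component and 0.19 of the animal number. Invs and Bicc1 had -0.0162 within groups, -0.164 on residuals of the length slope and -0.0682 on median-centred TPM, Anks3 and Nek8 -0.0223 on the latter, Nek8 and Bicc1 -0.353 on the length slope and Anks6 and Bicc1 -0.0259 on the library set. With 1 rat left out, r ran from -0.0182 to 0.209 (Anks6, Anks3), -0.205 to 0.0881 (Anks6, Nek8), -0.0552 to 0.155 (Anks6, Bicc1), -0.141 to 0.0605 (Anks3, Invs), -0.114 to 0.2205 (Anks3, Nek8) and -0.0900 to 0.184 (Invs, Bicc1). Relations with marker lists that passed numbered 9 on log2(TPM + 1), 0 without the urothelial rats and 1 to 5 with a rat left out (1 without i.v. ASC rat 3, 5 without i.v. ASC rat 8). With at least 50 counts the relative lengths of Anks3, Nek8 and Bicc1 were 1.12, 1.24 and 1.57. No paired analysis was possible because the groups hold different animals that share no replicate number. Invs had the fewest counts of the 5 genes, 142.3 to 251 per rat, and counting error was not compared with the spread between rats.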

Other observations

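Correlations over the 22 rats were also computed between the 5 genes and 15 partner genes, 75 relations chosen after the data were seen, with permutation tests adjusted over the 75. Those described here passed by r. Anks6 with Glis2, a transcription factor of nephronophthisis, had r = 0.616 (permutation p = 0.00211, adjusted 0.0264), but rho of 0.513 (adjusted 0.0861) and 0.404 without 2 rats. The relation of Anks6 with Unc119b (r = 0.575, permutation p = 0.0052, adjusted 0.0488) fell to 0.251 without 2 rats. With the length slope taken out, r of Anks6 was 0.678 with Glis2 (adjusted permutation p = 0.03675) and 0.573 with Unc119b (adjusted 0.08475).

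Nek8 correlated with Adcy6 at r = 0.757 (permutation p = 7e-05, adjusted 0.00263; rho = 0.825) and with the Wnt mediator Dvl1 at r = 0.727 (permutation p = 0.00011, adjusted 0.00275; rho = 0.658). With the length slope taken out these were 0.524 (adjusted permutation p = 0.116) and 0.579 (adjusted 0.0848). Nek8 with Pkd2 and with Nphp4 had r of 0.640 and 0.622 (adjusted permutation p = 0.0264 for both), and 0.261 and 0.236 with the slope taken out. For Bicc1 and Pkd2 r was 0.744 (permutation p = 7e-05, adjusted 0.00263; rho = 0.800), and 0.276 (adjusted 0.428) with the slope taken out.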
